A study of Mus musculus with 2 samples.

Results

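Colonic T cells that carry RNA of Foxp3, the transcription factor that defines regulatory T cells, are described here in a mouse model of colitis, in which the polymer dextran sulfate sodium (DSS) injures the colon epithelium. A cell barcode was taken when it reached 500 unique molecular identifiers (UMIs, each 1 captured RNA molecule) over 200 genes, with mitochondrial RNA no higher than 25%. It also needed at least 1 Foxp3 UMI, at least 1 UMI of the 5 T cell genes Cd3e, Cd3d, Cd3g, Trac and Trbc2, and no UMI of Cd8a, Cd8b1 or Cd79a. This rule took 167 of 17858 barcodes, 63 of 8124 from the wild-type library and 104 of 9734 from the library labelled Elf-1 knockout. The cells were thus chosen by their counts of Foxp3, of the CD3 and T cell receptor genes, and of Cd8a, Cd8b1 and Cd79a, whose levels are not results.

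Both groups were C57BL/6 mice aged 8 to 10 weeks and both received DSS, so no unchallenged colon enters any comparison. They differed in genotype: wild type, or Elf-1-/-, lacking a transcription factor of the ETS family. Proximal and distal colon and rectum were dissociated, the cells of 3 mice of a group were pooled, and 1 GEXSCOPE single-cell RNA library was made from each pool. The labels name no promoter or Cre line, and the pooled mice cannot be told apart. With 1 library a group there is no replicate and no test, and genotype and library cannot be told apart. All intervals below are exact 95% intervals (Poisson for levels, Clopper-Pearson for shares, conditional binomial for ratios) and cover counting error only.

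Regulatory T cells prevent immune pathology by taking up interleukin-2 through a receptor that contains CD25 (Il2ra), by removing costimulatory ligands with CTLA-4, and by releasing the cytokine IL-10. In the intestine they are found as thymus-derived cells, often marked by Helios (Ikzf2), GATA3 and the IL-33 receptor (Il1rl1), and as microbiota-induced cells that carry c-Maf. Tissue regulatory T cells also release amphiregulin (Areg), a growth factor for epithelium.

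The 63 wild-type cells held 173290 UMIs, with a median of 2334 a cell (range 714 to 12098), and the 104 labelled knockout cells held 508127, with a median of 2818 (range 523 to 25499). The labelled knockout sum rests more on few cells: 13 cells over 10000 UMIs gave 41.1% of it, against 1 cell and 6.98% in wild type. Elf1 was detected in both libraries, at 571 CPM (UMIs of the gene scaled to a common total) from 99 UMIs in wild-type Foxp3 T cells and at 323 CPM from 164 UMIs in the labelled knockout. The Elf1 ratio of labelled knockout to wild type was 0.565 (interval 0.438 to 0.733) in Foxp3 T cells, 0.884 (0.725 to 1.08) in Foxp3-negative CD4 T cells and 1.03 (0.834 to 1.27) in CD8 T cells. The UMIs are summed over the whole gene (chr14:79481194-79582494 on GRCm38, plus strand), so they do not check the deletion, and the second library is called labelled knockout throughout. The 2 barcode lists shared 57 sequences, none of them in a Foxp3 T cell.

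Other T cells served for comparison: T cells with a Cd4 UMI that met the other terms but had no Foxp3 UMI (163 in wild type, 143 in labelled knockout), and CD8 T cells (194 and 112). Cd4 itself was found in 13 of 63 wild-type Foxp3 T cells (20.6%) and in 51 of 104 labelled knockout cells (49.0%). After each cell was thinned to 1000 UMIs those shares were 11.7% and 24.0%, so most Foxp3 T cells carry no Cd4 UMI at this depth. Cells of the comparison group whose Foxp3 RNA was missed cannot be told apart from cells that lack it.

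Markers of regulatory T cells that the rule did not use were counted next. At least 3 of Il2ra, Ctla4, Il10, Tnfrsf4 and Tnfrsf9 had a UMI in 65.1% of wild-type and 80.8% of labelled knockout Foxp3 T cells, against 12.3% and 23.1% of Foxp3-negative CD4 T cells. None of the 5 had a UMI in 2 cells of each library. Tnfrsf4, which encodes the costimulatory receptor OX40, was detected in 84.1% (72.7 to 92.1) of wild-type and 91.3% (84.2 to 96.0) of labelled knockout Foxp3 T cells. In CD8 T cells, which bear little OX40, it was detected in 3.09% and 1.79%, at median depths of 2034 and 1930.5 UMIs. Helios was detected in 19.0% and 14.4% of the Foxp3 T cells, while Nrp1, another marker of thymus-derived cells, was seen in 1 wild-type and 2 labelled knockout cells.

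**Figure D1:**
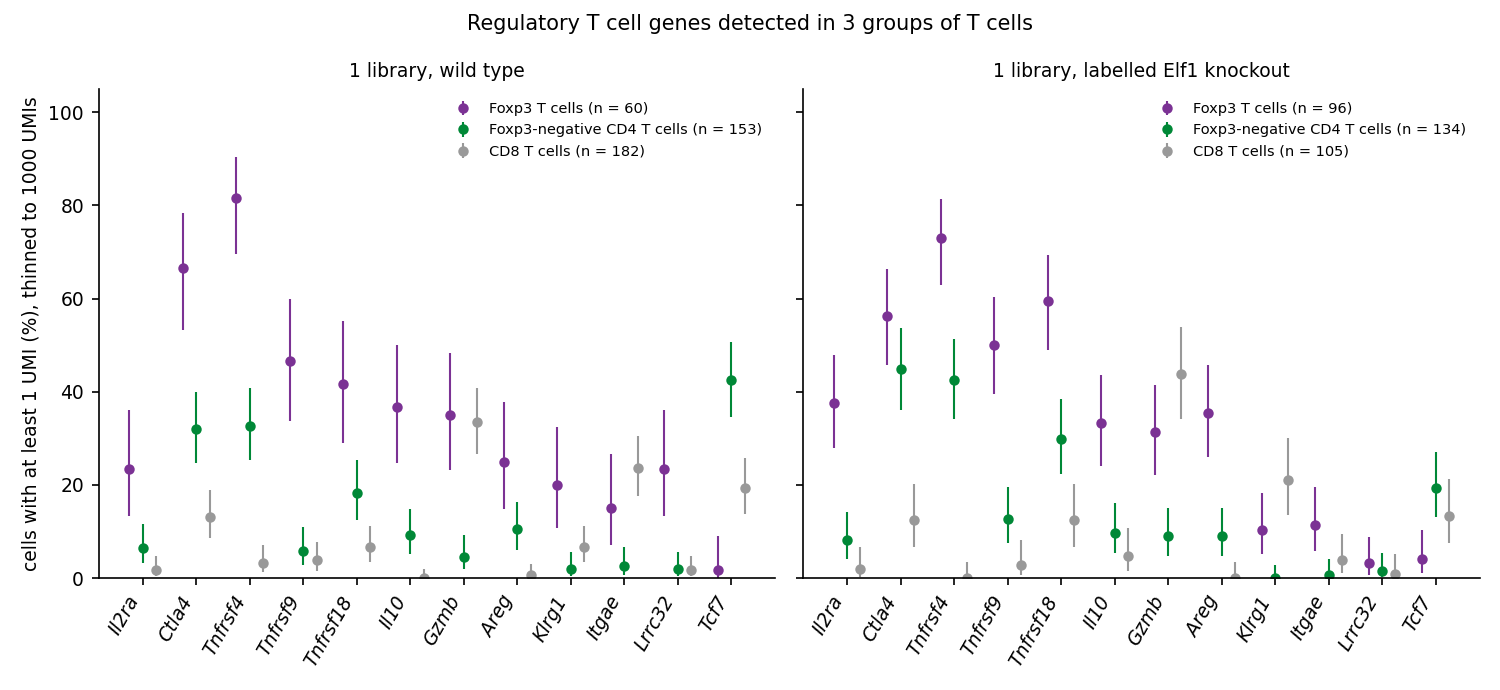
Share of cells with at least 1 UMI (vertical axis, percent) of 12 regulatory T cell and comparison genes after thinning each cell to 1000 UMIs, in Foxp3 T cells, Foxp3-negative CD4 T cells and CD8 T cells of the wild-type library (left) and the labelled knockout library (right). Points are shares and bars are Clopper-Pearson 95% intervals; Tnfrsf4 lies at 81.7% and 72.9% in Foxp3 T cells, and Tcf7 is the gene that lies lower in them than in CD4 T cells in both libraries.

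Cells just inside the threshold, with a single Foxp3 UMI, were 31 in wild type and 40 in labelled knockout, and those with 2 or more were 32 and 64. Il10 stood at 1832 CPM in wild-type cells with 1 Foxp3 UMI, at 1410 CPM with 2 or more and at 80.2 CPM in the 893 T cells with none. In the labelled knockout library the Il10 levels were 761, 896 and 120 CPM. Tnfrsf4 stood at 2206, 2548 and 225 CPM in wild type and at 2051, 1944 and 394 CPM in labelled knockout, in the same order. In these 2 genes the cells on either side of 2 Foxp3 UMIs were close, and both lay far above the T cells with none. Of the latter 18.3% and 15.4% had a Cd4 UMI. Other genes differed more in wild type: with 1 and with 2 or more Foxp3 UMIs, Tnfrsf18 was at 348 and 689 CPM and Lrrc32 at 168 and 292 CPM. In labelled knockout they were at 716 and 749 CPM and at 29.8 and 32.1 CPM.

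Foxp3 T cells made up 6.59% (5.10 to 8.35) of 956 wild-type T cells without Cd8a, Cd8b1 and Cd79a, and 10.1% (8.32 to 12.1) of 1031 labelled knockout T cells. The ratio of shares was 1.53 (1.11 to 2.13). Of all passing barcodes they were 0.775% and 1.07%, a ratio of 1.38 (0.998 to 1.92). A deeper cell shows a Foxp3 UMI more often, and the median depth of all these T cells was 1898 in wild type and 1858 in labelled knockout. With every cell thinned to 1000 UMIs, 35 of 750 and 48 of 719 T cells held a Foxp3 UMI, and the ratio was 1.43 (0.906 to 2.28). Without cells over 10000 UMIs it was 1.36 (0.974 to 1.91), and without cells that carried 2 or more UMIs of other lineages 1.171 (0.756 to 1.80). Barcodes without T cell genes held Foxp3 in 1 of 6791 wild-type cases (0.0147%) and 19 of 8532 labelled knockout cases (0.223%). Free RNA, missed T cell genes and doublets cannot be told apart in those barcodes.

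Against Foxp3-negative CD4 T cells of the same library, Foxp3 T cells carried more RNA of suppressive genes and less of helper genes. Of 3512 genes with at least 30 UMIs in wild type, 201 (5.72%) were at least 2-fold higher in Foxp3 T cells and 360 (10.3%) at least 2-fold lower. In labelled knockout 278 of 4903 (5.67%) were higher and 354 (7.22%) lower. The genes past 2-fold in both libraries were 33 higher ones (16.4% of the wild-type and 11.9% of the labelled knockout list) and 94 lower ones (26.1% and 26.6%). As means over cells in place of sums, 464 were higher and 380 lower in labelled knockout. A background bound for free RNA was set for each gene as its lowest mean per barcode among 8 classes of cells without CD3 genes. With genes under 3 times this bound left out, 5.85% were higher and 10.1% lower in wild type, and 6.52% and 4.87% in labelled knockout. Of 12 measured genes of suppressive function, 9 were higher and none lower in wild type, and 5 higher and none lower in labelled knockout, with list medians of 1.24 and 0.49 on the log2 scale beside 0.02 and 0.10 for all genes. Of the genes of tissue regulatory T cells, 10 of 20 were higher and none lower in wild type (median 0.96), and 5 of 22 higher and 1 lower in labelled knockout (median 0.42).

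The CD4 T cells of the comparison also carried RNA of other lineages. Myeloid genes summed to 7156 CPM in wild-type CD4 T cells against 889 CPM in Foxp3 T cells, and to 4593 against 1206 CPM in labelled knockout. Of the measured genes, 10 of 12 myeloid and 7 of 8 epithelial ones were at least 2-fold lower in wild-type Foxp3 T cells, beside 10.3% of all genes. In labelled knockout 11 of 13 myeloid, 10 of 10 fibroblast and 4 of 4 mast and erythroid genes were, beside 7.22% of all genes. A single labelled knockout CD4 T cell held 3201 of the 3550 UMIs of the mast and erythroid list. Without cells that held 2 UMIs of other lineages, the 360 and 354 lower genes became 158 and 60, with fewer genes measured, and the part of these markers was not tested further.

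Among these effector molecules, Il10 was at 1598 CPM in wild-type Foxp3 T cells and 236 CPM in CD4 T cells, a ratio of 6.77 (5.40 to 8.55). In labelled knockout its levels were 860 and 219 CPM, a ratio of 3.93 (3.17 to 4.90). Il10 RNA was unevenly spread: 25 of 63 and 40 of 104 cells had a UMI, and the 5 highest cells gave 44.4% and 37.3% of it. Gzmb, the cytotoxic protease granzyme B, was at 1368 CPM in wild-type Foxp3 T cells against 77.9 CPM in CD4 T cells, and at 799 against 244 CPM in labelled knockout. Gzmb was 17.6 times (12.3 to 25.8) and 3.28 times (2.67 to 4.06) higher, and the CD4 T cell level itself was 3.13 times higher in the labelled knockout library. Gzmb was not particular to Foxp3 T cells: it had a UMI in 42.9% and 40.4% of them and in 37.6% and 60.7% of CD8 T cells. Lag3, an inhibitory receptor for MHC class II, had ratios of 2.23 (1.58 to 3.13) and 2.36 (1.68 to 3.38).

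Amphiregulin RNA is listed in the files under the symbol Mcub_2, but its gene identifier, ENSMUSG00000029378, is that of Areg in GENCODE (chr5:91139599-91148432 on GRCm38, plus strand). A search by symbol would have returned no Areg at all. Areg had 161 UMIs in wild-type Foxp3 T cells (929 CPM, in 38.1% of cells) and 392 in labelled knockout (771 CPM, in 49.0% of cells). It was 2.86 times (2.27 to 3.60) and 5.31 times (4.11 to 6.93) the CD4 T cell level, and it had a UMI in 2.58% and 0.893% of CD8 T cells. The larger ratio in labelled knockout stood beside a lower Areg level in CD4 T cells (145 against 325 CPM). Between the libraries the Areg level in Foxp3 T cells had a ratio of 0.830 (0.689 to 1.00), which became 1.66 with cells thinned to 1000 UMIs and 0.381 in cells with at least 2 Foxp3 UMIs, so its direction was not settled.

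**Figure D2:**
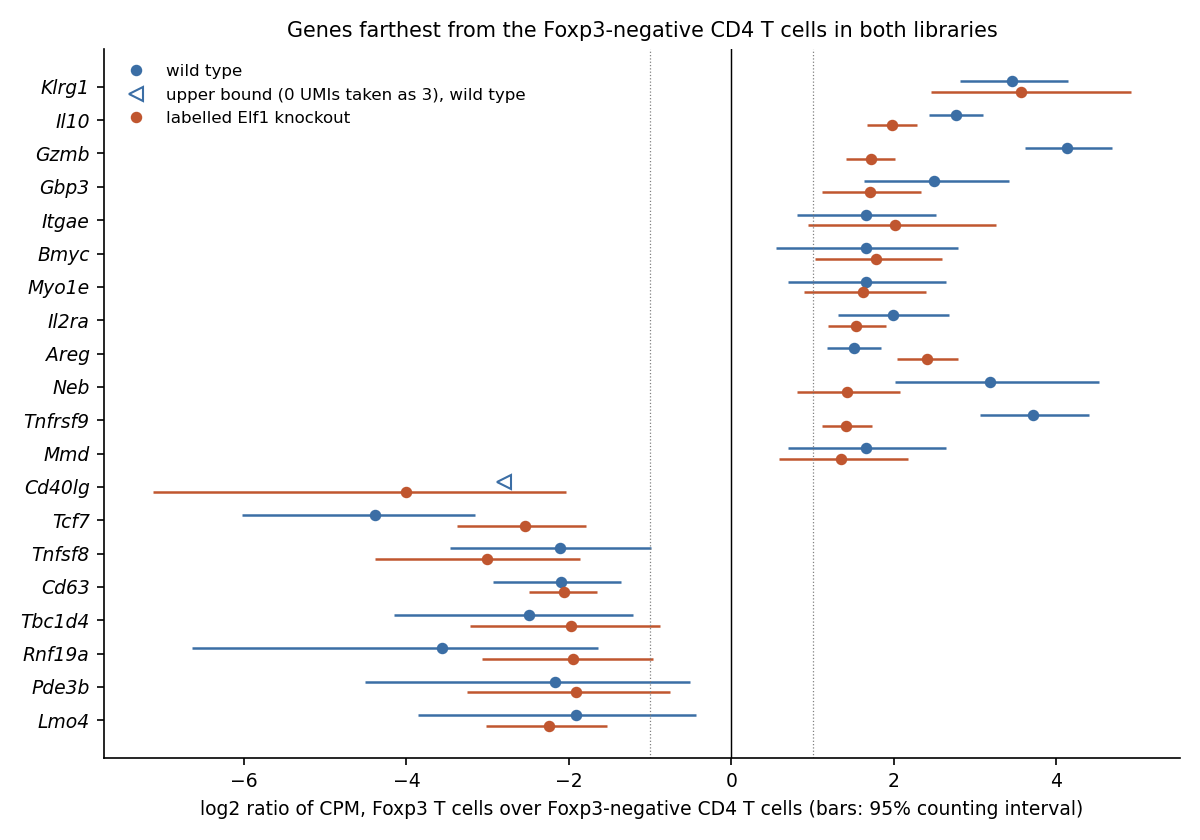
Log2 ratio of CPM in Foxp3 T cells over Foxp3-negative CD4 T cells (horizontal axis) for the 12 highest and 8 lowest genes by the named-gene rule, in wild type (blue) and labelled knockout (orange). Points are ratios, bars 95% counting intervals, dotted lines 2-fold, and the open triangle marks a bound for Cd40lg, which had 0 UMIs in wild-type Foxp3 T cells; Klrg1 lies farthest right in labelled knockout.

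Receptors of the Foxp3 T cells stood above CD4 T cells as well. Klrg1, a receptor for E-cadherin found on terminally differentiated tissue regulatory T cells, was at 612 against 55.7 CPM in wild type and at 169 against 14.3 CPM in labelled knockout. The Klrg1 ratios were 11.0 (7.05 to 17.7) and 11.8 (5.49 to 30.2), and both rest on few CD4 T cells. There were 25 UMIs in 5 wild-type CD4 T cells, 15 of them in 1 cell, and 7 UMIs in 4 labelled knockout ones. A single cell held 42 of the 86 Klrg1 UMIs of labelled knockout Foxp3 T cells. Tnfrsf9, the costimulatory receptor 4-1BB, had ratios of 13.1 (8.38 to 21.2) and 2.67 (2.16 to 3.31), while its level in Foxp3 T cells differed little, at 698 and 661 CPM. The difference in the ratio came with CD4 T cells, at 53.4 CPM in wild type and 248 CPM in labelled knockout. Il2ra had ratios of 3.97 (2.49 to 6.404) and 2.90 (2.28 to 3.73), and Itgae, the CD103 chain that pairs with the β7 integrin to bind E-cadherin, 3.16 (1.75 to 5.73) and 4.06 (1.93 to 9.54). CD8 T cells also carried some of these. Klrg1 was in 28.6% and 17.3% of Foxp3 T cells and in 11.3% and 29.5% of CD8 T cells. Itgae was in 25.4% and 21.2% against 31.4% and 4.46%. Tnfrsf9 (5.67% and 9.82%) and Il2ra (3.61% and 7.14%) were in fewer CD8 than Foxp3 T cells.

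Other genes that the rule named on the high side were Gbp3, an interferon-induced GTPase, with ratios of 5.64 and 3.26, Neb, which encodes nebulin, with 9.07 and 2.69, and Bmyc with 3.15 and 3.44. Myo1e, an unconventional myosin, had ratios of 3.17 and 3.07 and Mmd 3.17 and 2.55, but both labelled knockout ratios turned below 1 after thinning.

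Helper T cell genes lay on the low side. Cd40lg, the ligand by which helper cells activate B cells and dendritic cells, had 0 UMIs in wild-type Foxp3 T cells against 54 in CD4 T cells, at least 6.94-fold lower with 3 counts as the floor for the summed cells. In labelled knockout it had 2 against 31 UMIs, a ratio of 0.0620 (0.00719 to 0.244). Il22, a cytokine that acts on epithelium, had 1 against 224 UMIs in wild type and 6 against 537 in labelled knockout. Ifng had 2 against 43 and 0 against 94 UMIs. Of the helper genes with enough UMIs, 5 of 10 in wild type and 8 of 11 in labelled knockout were at least 2-fold lower in Foxp3 T cells. Of all genes 10.3% and 7.22% were lower. Among the helper genes 1 in wild type was higher. That one, Il17f, rested on 35 UMIs of a single cell.

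Tcf7, which encodes the TCF-1 factor of naive and memory T cells, was detected in 4 wild-type Foxp3 T cells (6.35%) against 59.5% of CD4 T cells, and in 9 labelled knockout cells (8.65%) against 28.0%. Its ratios were 0.0476 (0.0153 to 0.113) and 0.172 (0.0962 to 0.290). Lef1, its partner factor, had ratios of 0.299 (0.132 to 0.597) and 0.471 (0.280 to 0.775), and Bcl2, an inhibitor of cell death, 0.179 (0.0207 to 0.707) and 0.222 (0.0405 to 0.807). The rule also named Tnfsf8 (ratios 0.233 and 0.125), Tbc1d4 (0.178 and 0.254), Rnf19a (0.0850 and 0.258), Pde3b (0.222 and 0.265), Cd63 (0.233 and 0.239) and Lmo4 (0.266 and 0.211). The direction of the last 2 was not settled: on the log2 scale Cd63 turned to 0.15 in labelled knockout without cells that held 2 UMIs of other lineages and to 0.018 thinned, and Lmo4 to 0.39 in wild type thinned.

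Of the measured cell cycle genes, 8 of 20 in wild type and 11 of 25 in labelled knockout were at least 2-fold above CD4 T cells and none was 2-fold below, beside 5.72% and 5.67% of all genes above. Mki67, the nuclear protein of dividing cells, had ratios of 3.12 (2.05 to 4.77) and 2.36 (1.83 to 3.07) and was detected in 20.6% and 33.7% of Foxp3 T cells. Few cells carried much of this RNA: cell cycle genes reached 2% of a cell's UMIs in 3 of 63 wild-type cells (4.76%) and 2 of 104 labelled knockout cells (1.92%). At 1% of a cell's UMIs the order was the opposite, with 7 (11.1%, interval 4.59 to 21.6) and 19 cells (18.3%, 11.4 to 27.1), so no order of the libraries is read from these shares. The 5 highest cells gave 57.5% and 36.7% of all cell cycle UMIs of the Foxp3 T cells.

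Within the Foxp3 T cells, Klrg1 was found together with markers of the GATA3 type. Gata3 had a UMI in 7 of 18 wild-type cells with Klrg1 (38.9%) and in 3 of 45 without (6.67%), and in 8 of 18 labelled knockout cells with Klrg1 (44.4%) against 12.8% of the rest. The IL-33 receptor gene Il1rl1 was found in 33.3% of cells with Klrg1 in each library, against 4.44% and 4.65% of cells without. Areg was found in 55.6% of wild-type and 77.8% of labelled knockout cells with Klrg1, against 31.1% and 43.0%. Cells with and without Klrg1 had close median depths, 2256 and 2352 UMIs in wild type and 2857 and 2749 in labelled knockout. These are shares of few cells of 1 library each and are given as a description.

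Gzmb and Il10 also shared cells. Il10 had a UMI in 59.3% of wild-type cells with Gzmb and 25% of cells without, and in 69.0% against 17.7% of labelled knockout cells. Cells with Gzmb were deeper, with medians of 2681 against 1962 UMIs and 4489.5 against 2483, and the part of depth in this was not tested. Maf was detected in 66.7% and 73.1% of Foxp3 T cells and in 57.7% and 58.7% of CD4 T cells. With thinned cells the Maf shares were 40.0% against 41.2% in wild type and 46.9% against 38.8% in labelled knockout. The higher share in Foxp3 T cells thus did not remain in wild type at equal depth.

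Between the libraries, 392 of 3736 genes with at least 30 UMIs (10.5%) were at least 2-fold higher in labelled knockout Foxp3 T cells and 179 (4.79%) at least 2-fold lower. The median of all genes was 0.09 on the log2 scale. In Foxp3-negative CD4 T cells 7.80% of 4783 genes were higher and 7.55% lower. Lists of regulatory T cell identity (27 genes, 22 measured) and suppressive function (17 genes, 13 measured) had 0 genes 2-fold higher and 4 and 2 lower, with medians of -0.55 and -0.74. Medians were also below 0 for general CD4 T cell genes (-0.59), homing receptors (-0.56), cytokine receptors (-0.56) and ETS factors (-0.63). They were above 0 for glycolysis and hypoxia genes (0.31) and cell cycle genes (0.50). A lower median was thus not particular to the regulatory T cell lists. The identity list includes Foxp3, which chose the cells. Foxp3 is not among the 4 lower genes but enters the list's median, here and below, which is therefore only a description. Of 15 measured IL-2 signalling genes, none was past 2-fold in either direction.

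The medians of the regulatory T cell lists moved with the way cells were counted. The identity list went from -0.55 to -0.30 without cells over 10000 UMIs, to -0.19 without cells that held 2 UMIs of other lineages, and to -0.00 with thinned cells. Tissue regulatory T cell genes went from -0.49 to -0.15, -0.13 and 0.02 in the same order. The heat shock list stayed below 0, between -1.87 and -0.58, under each of the 11 ways that were run.

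**Figure D3:**
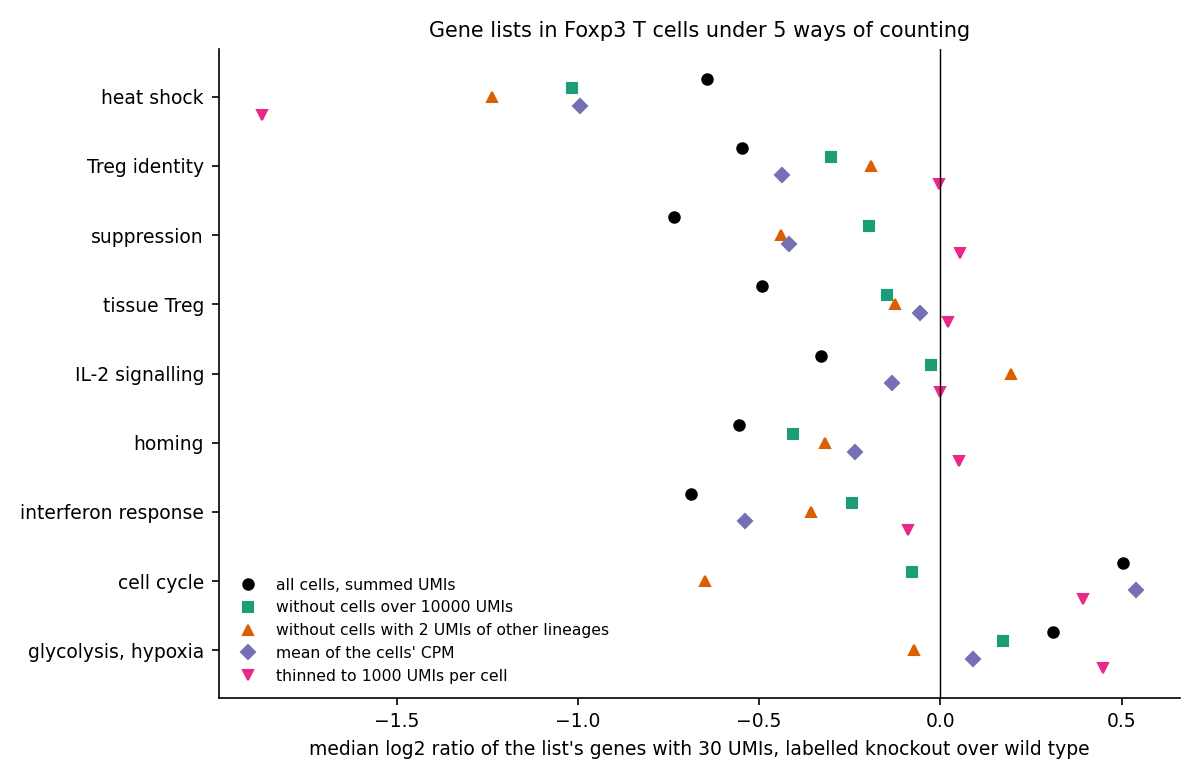
Median log2 ratio of labelled knockout over wild type (horizontal axis) in Foxp3 T cells for 9 gene lists, under 5 ways of counting given by colour and shape. Each point is the median over the list's genes with at least 30 UMIs, between 2 and 12 genes with thinned cells; the heat shock points all lie below 0, from -0.65 with all cells to -1.87 thinned, while most other lists spread toward 0.

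The genes lowest in the labelled knockout were inducible heat shock genes. Hspa1b and Hspa1a encode near-identical HSP70 chaperones that hold unfolded proteins and are induced by heat and other stress. Hspa1a had 265 UMIs in 30 of 63 wild-type Foxp3 T cells (1529 CPM) and 34 UMIs in 16 of 104 labelled knockout cells (66.9 CPM), 22.9-fold lower. Hspa1b had 140 UMIs in 32 cells (808 CPM) and 5 UMIs in 3 cells (9.84 CPM), 82.1-fold lower. Reads of the 2 copies could have been divided between them by the authors' counting, so neither level is certain alone. The 250 bases before each start are shown, because they tell how far the copies can be separated at their promoters. Both are on the minus strand, written 5′ to 3′, from RefSeq's GRCm38.p6, at chr17:34972157-34972406 and chr17:34959239-34959488, and capitals mark the 3 of 250 positions that differ (98.8% identity).

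Hspa1a: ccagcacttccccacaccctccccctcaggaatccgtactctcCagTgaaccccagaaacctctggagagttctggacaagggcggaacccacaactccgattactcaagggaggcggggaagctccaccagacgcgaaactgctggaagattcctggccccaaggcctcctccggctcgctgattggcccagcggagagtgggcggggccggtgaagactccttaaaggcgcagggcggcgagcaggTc
Hspa1b: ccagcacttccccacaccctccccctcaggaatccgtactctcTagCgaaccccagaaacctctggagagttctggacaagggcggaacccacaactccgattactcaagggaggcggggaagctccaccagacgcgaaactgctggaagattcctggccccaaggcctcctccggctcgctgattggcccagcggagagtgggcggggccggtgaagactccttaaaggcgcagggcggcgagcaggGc

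Counted from the 5′ end with the Hspa1a base first, the differences are C44T, T47C and T249G. The letters of a heat shock element were searched on either strand as GAA, TTC and GAA, or TTC, GAA and TTC, with NN between neighbouring units, and were not in these windows. In windows of the same 250 bases they were in 0.466% of 32851 RefSeq promoters and in 2 of 22 promoters of the heat shock list, those of Hspd1 and Hspe1. Only this exact order and spacing of full units was searched. Elements with an imperfect or missing unit were not looked for, and the absence of these letters is no measure of binding.

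Other chaperone genes lay on the same side. Hsph1, an HSP110 exchange factor for HSP70, was 5.34-fold lower (51 and 28 UMIs), Dnajb1 and Dnaja1, HSP40 cochaperones, 3.30-fold and 3.34-fold lower, and Hsp90aa1 2.05-fold lower. Hspd1, the mitochondrial HSP60, had a ratio of 1.02 (0.757 to 1.38) with all cells and 0.422 without cells over 10000 UMIs. In all 6 of 16 measured heat shock genes were at least 2-fold lower in labelled knockout Foxp3 T cells and none higher, beside 4.79% of all genes lower. In Foxp3-negative CD4 T cells 8 of 18 were lower, beside 7.55% of all genes. Hspa1a was at 2959 and 223 CPM there, so this difference was not limited to Foxp3 T cells. Within wild type, Hspa1a was detected in 47.6% of Foxp3 T cells and 68.7% of CD4 T cells. Both pools were dissociated by 1 protocol, and no value here separates genotype from a difference in handling between the pools.

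**Figure D4:**
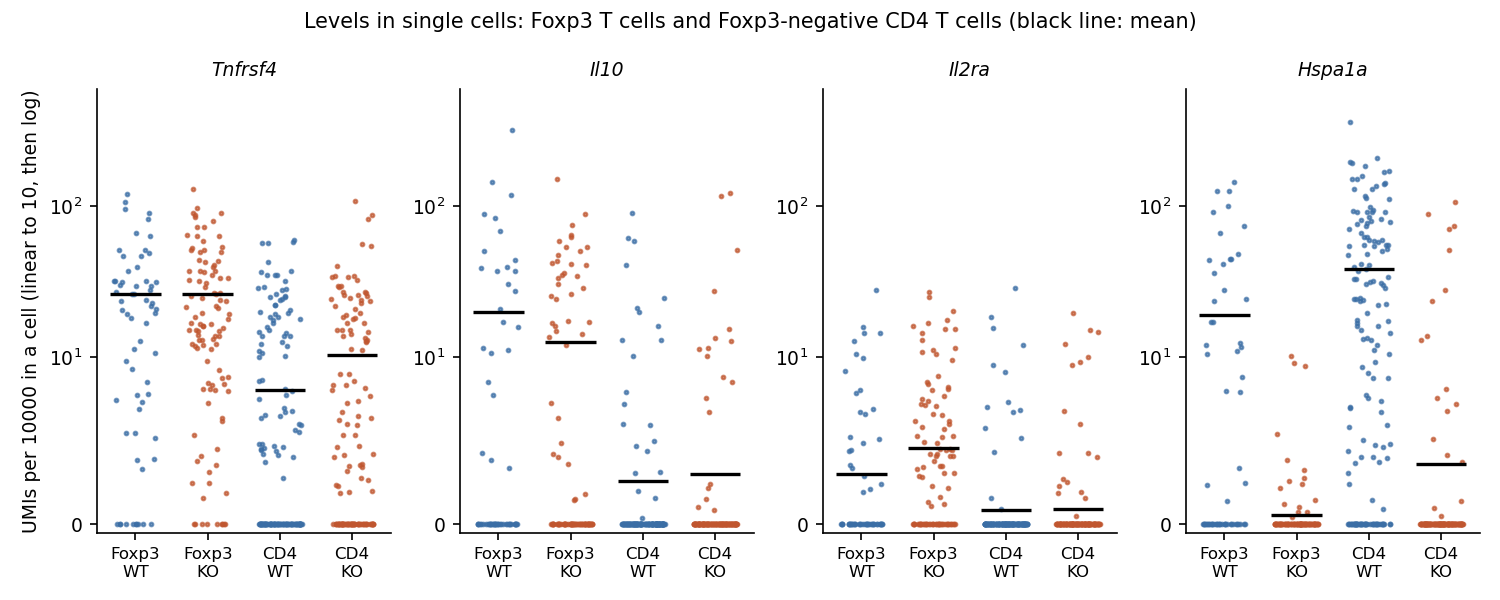
UMIs per 10000 in each cell (vertical axis, linear to 10 and then logarithmic) of Tnfrsf4, Il10, Il2ra and Hspa1a in Foxp3 T cells and Foxp3-negative CD4 T cells of the wild-type and labelled knockout libraries. Each point is a cell and black lines are means; the highest Hspa1a cell among Foxp3 T cells stands at 145 in wild type and at 10.1 in labelled knockout.

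Of the 22 measured identity genes, Il2ra had the highest ratio of labelled knockout to wild type. There were 49 UMIs in 24 of 63 wild-type cells (283 CPM) and 272 UMIs in 63 of 104 labelled knockout cells (535 CPM), a ratio of 1.89 (1.39 to 2.62). The share of cells with Il2ra was 38.1% (26.1 to 51.2) and 60.6% (50.5 to 70.0), and 23.3% and 37.5% after thinning. The ratio was 1.31 without cells over 10000 UMIs, 1.58 thinned and 1.26 without cells that held 2 UMIs of other lineages. Il2ra also had a ratio of 2.59 in Foxp3-negative CD4 T cells. Its promoter window (chr2:11642542-11642791 on GRCm38.p6, plus strand, from RefSeq) is shown because Elf-1 is an ETS factor and ETS factors bind a GGAA core.

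Il2ra: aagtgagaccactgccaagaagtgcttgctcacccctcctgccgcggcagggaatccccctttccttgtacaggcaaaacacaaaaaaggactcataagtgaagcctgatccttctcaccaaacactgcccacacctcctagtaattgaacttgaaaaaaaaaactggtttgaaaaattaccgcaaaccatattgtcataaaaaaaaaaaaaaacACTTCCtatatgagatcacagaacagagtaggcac

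Capitals mark GGAAGT, read here on the opposite strand as ACTTCC, which begins 35 bases before the start. In windows of the same 250 bases these letters on either strand are in 19.7% of all promoters of the table and in 4 of 20 promoters of the identity list, and the longer CCGGAAGT is in 2.88% of all and in 0 of those 20. This is a description of letters and no measure of binding.

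Tnfrsf18, the receptor GITR, was at 537 CPM in 52.4% of wild-type cells and 740 CPM in 86.5% of labelled knockout cells, a ratio of 1.38 (1.10 to 1.75). Its ratio lay between 1.73 and 2.18 without deep cells, without cells holding other lineages' UMIs, as a mean over cells and thinned. Tnfrsf18 was also at least 2-fold higher in labelled knockout Foxp3-negative CD4 T cells, detected in 24.5% of wild-type and 46.2% of labelled knockout ones. In CD8 T cells it was detected in 12.4% and 23.2%, so the rise was not particular to Foxp3 T cells. Ccr6, a chemokine receptor for CCL20, had 8 and 58 UMIs in 7 and 32 cells, a ratio of 2.47 (1.18 to 6.00). Thinning left it in 1 of 60 (1.67%) and 8 of 96 cells (8.33%). The thinned ratio of 5.10 is from the 35 and 48 cells that still met the rule, and few UMIs enter it. Dgat1, an enzyme of triglyceride synthesis, had a ratio of 1.68 (1.166 to 2.47) in Foxp3 T cells, or 2.92 thinned, and 4.57 in CD4 T cells.

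Lower in labelled knockout was Lrrc32, which encodes GARP, the surface anchor of latent TGF-β on regulatory T cells. It had 41 UMIs in 21 of 63 wild-type cells (237 CPM) and 16 UMIs in 11 of 104 labelled knockout cells (31.5 CPM), 7.51-fold lower, a ratio of 0.133 (0.0697 to 0.242). The ratio lay between 0.0456 and 0.210 under the 4 ways of counting named for Tnfrsf18. In Foxp3-negative CD4 T cells Lrrc32 had 11 and 13 UMIs, a ratio of 1.09, and the 2 ratios were not tested against each other. Labelled knockout Foxp3 T cells, at 31.5 CPM, were thus close to their CD4 T cells at 26.6 CPM.

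Klrg1, at 612 and 169 CPM, had a ratio of 0.277 (0.206 to 0.371), and 5 cells held 59.4% and 74.4% of its UMIs. The Klrg1 ratio was 0.452 without cells that held 2 UMIs of other lineages. Cd83, an activation marker, had a ratio of 0.297 (0.225 to 0.391). Both were lower in CD4 T cells too, with ratios of 0.258 and 0.357, the first from only 25 and 7 Klrg1 UMIs. In CD8 T cells Klrg1 was detected in 11.3% of wild-type and 29.5% of labelled knockout cells. Vsir, the checkpoint protein VISTA, had a ratio of 0.317 (0.178 to 0.560), or 0.608 without cells that held 2 UMIs of other lineages. The integrin chains Itgb2 and Itgal, which form LFA-1, had ratios of 0.437 (0.292 to 0.658) and 0.483 (0.278 to 0.852). Itgal was lower in CD4 T cells too, at -1.58 on the log2 scale. Itgb2 was not among the homing genes at least 2-fold lower there. Klf2, a transcription factor of quiescent T cells, was at 1691 and 620 CPM, a ratio of 0.367 (0.312 to 0.431), but its labelled knockout level was 2.22 times the background bound.

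The main suppressive genes differed less. Il10 was detected in 39.7% and 38.5% of cells with a ratio of levels of 0.538 (0.462 to 0.628), which was 0.873 without cells over 10000 UMIs. Ctla4 was detected in 82.5% and 81.7% of cells with a ratio of 0.632 (0.539 to 0.743). Gzmb had a ratio of 0.584 (0.497 to 0.689), which was 1.01 thinned. Tnfrsf4 had a ratio of 0.823 (0.734 to 0.925), which was 1.38 thinned. Ikzf2 and Itgae, both 2-fold lower as summed, had ratios of 1.46 and 1.167 thinned.

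Interferon response genes were lower by count, with 8 of 24 measured genes at least 2-fold lower and none higher, and 10 of 29 lower in CD4 T cells, beside 4.79% and 7.55% of all genes. Zbp1, a sensor of Z-form nucleic acid, had 32 and 20 UMIs and was 4.69-fold lower, with a ratio of 0.213 that was 0.440 without cells holding 2 UMIs of other lineages. The list's median was -0.69 with all cells, -0.24 without cells over 10000 UMIs and -0.09 thinned. Cell cycle genes were higher by count, 7 of 25 beside 10.5% of all genes, and none was lower. Their median of 0.50 was -0.08 without cells over 10000 UMIs. Without cells that held 2 UMIs of other lineages the median was -0.65, with none of 13 measured cell cycle genes higher and 3 lower. Ube2c, a ubiquitin-conjugating enzyme of mitosis, had a ratio of 4.77 (2.72 to 9.14) with all cells and 2.78 without the deep ones. The Ube2c ratio was 1.70 thinned.

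**Figure D5:**
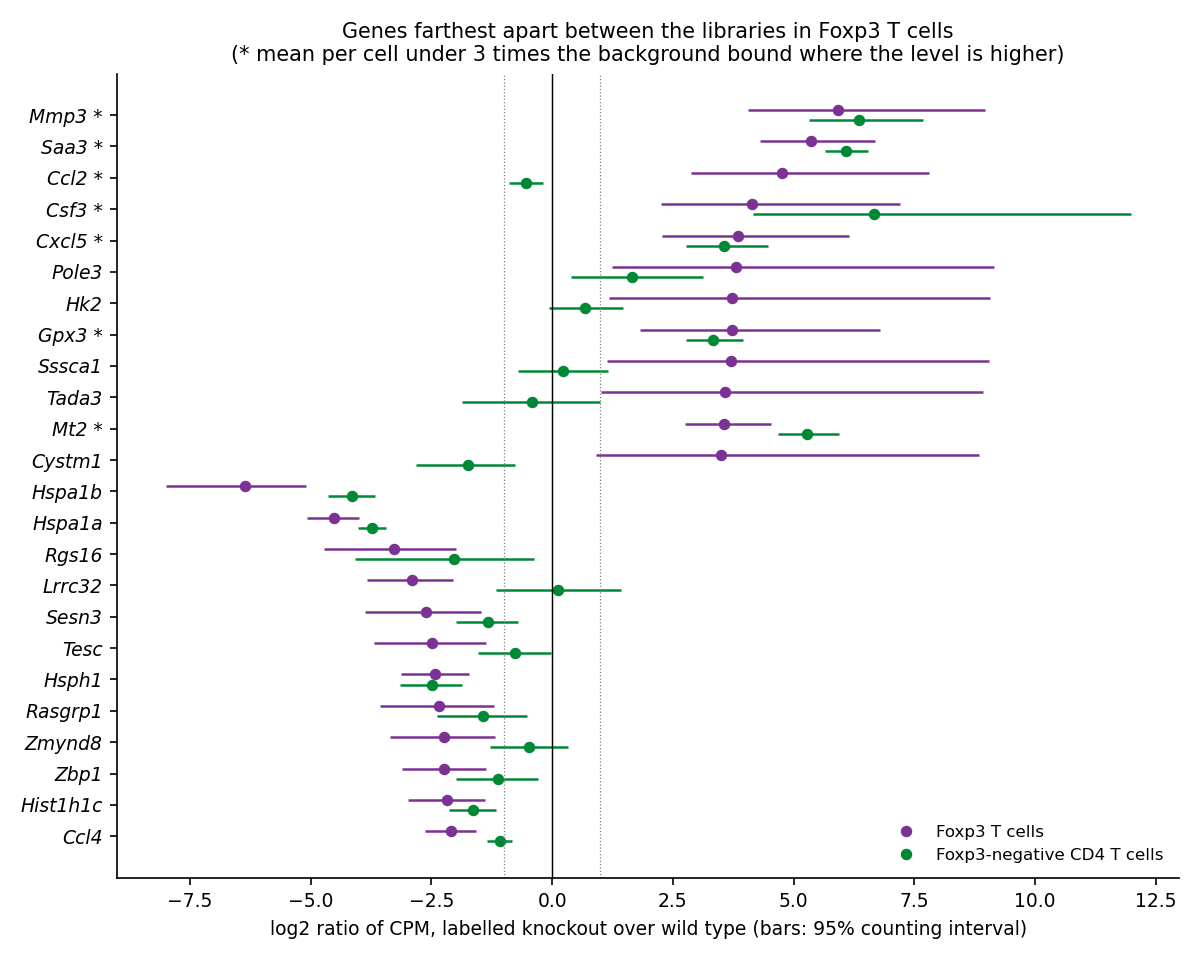
Log2 ratio of CPM in labelled knockout over wild type (horizontal axis) for the 12 highest and 12 lowest genes by the named-gene rule, in Foxp3 T cells (purple) and Foxp3-negative CD4 T cells (green). Points are ratios, bars 95% counting intervals, dotted lines 2-fold, and asterisks mark 7 genes whose mean per cell was under 3 times the background bound; Hspa1b and Hspa1a lie lowest in both groups.

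Of the 12 genes with the highest ratios, 7 were under 3 times the background bound: Mmp3, Saa3, Ccl2, Csf3, Cxcl5, Gpx3 and Mt2. Saa3, an acute-phase protein, had 7 UMIs in wild-type and 842 in labelled knockout Foxp3 T cells, a mean of 8.10 a cell that was 0.785 times the bound. Labelled knockout fibroblasts had a mean of 202 Saa3 UMIs a cell and macrophages 110. The other 5, Pole3, Hk2, Sssca1, Tada3 and Cystm1, each had 1 UMI in wild type and 33 to 41 in labelled knockout. Thinned, Sssca1 and Cystm1 stood at -0.46 on the log2 scale. With 1 wild-type UMI before thinning and a count of 0 taken as 3, that value gives no direction. Hk2, the glucose-phosphorylating hexokinase 2, had a ratio of 13.3 with an interval from 2.25 to 539. Its thinned ratio was 1.46, with the same limit. Of the genes over the bound, 9.83% were higher and 4.90% lower.

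Among the lowest 12 were also signalling genes: Rgs16, which turns off G proteins, with 23 and 7 UMIs, Rasgrp1, a Ras activator downstream of the T cell receptor, with 19 and 11, and Sesn3 with 21 and 10. In CD4 T cells Rgs16 had 15 and 4 UMIs, Rasgrp1 37 and 15, and Sesn3 72 and 31. Tesc (21 and 11), Zmynd8 (21 and 13), Hist1h1c (37 and 24) and the chemokine Ccl4 (77 and 53) completed the set. Ccl4 turned higher in labelled knockout among cells with at least 2 Foxp3 UMIs.

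Markers of other lineages differed between the libraries in the same cells. Neutrophil genes summed to 260 CPM in 16 of 63 wild-type cells and to 1726 CPM in 96 of 104 labelled knockout cells, with a median of 0 and 0.0775% of a cell's UMIs. All of the neutrophil marker genes but Ltf were found in labelled knockout, and S100a8 was at 0.532 times its bound. Fibroblast genes summed to 1939 and 2090 CPM, in 35 and 97 cells. A single cell held 277 of the 336 wild-type fibroblast UMIs (82.4%), and without the highest cell of each library the sums were 366 and 1605 CPM. B and plasma cell genes summed to 5632 and 3365 CPM, with Ms4a1 at 0 UMIs in both libraries. The gene Ighm of that list, at 768 and 348 CPM, was found in 65.1% and 54.8% of Foxp3 T cells. At least 2 UMIs of other lineages were in 11 of 63 and 64 of 104 Foxp3 T cells, and their part in the differences between libraries was not tested beyond the values without those cells.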

How the data were processed

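The deposited matrices hold raw UMI counts per gene and barcode, made by the authors with cutadapt 1.17, STAR 2.6.1a and featureCounts 2.0.1 on GRCm38, per the submitters' processing notes. The files held 8635 wild-type and 10012 labelled knockout barcodes with 32481613 and 39750319 UMIs, and the 23197 genes listed in both entered comparisons between libraries. The cells and the 28 gene lists were chosen with earlier results of these data known. Of the list genes absent by symbol, 2 were found by gene identifier in GENCODE (Areg and Cd244a).

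Counts were summed over the cells of a group and given as CPM. Past 2-fold with at least 30 UMIs in the 2 sums counts as higher or lower. Named between libraries were the 12 highest and 12 lowest genes with a UMI in at least 10% of 1 library's Foxp3 T cells and an interval that leaves out 1. Named against CD4 T cells were the 12 highest and 8 lowest by the less extreme library. Mitochondrial, ribosomal, haemoglobin, immunoglobulin, receptor segment, sex-linked check and unnamed genes, markers of other lineages and the genes that chose the cells were left out of both. A count of 0 was taken as the floor of 3. Cells were thinned by drawing 1000 UMIs without replacement; ratios on thinned cells applied the rule again to the thinned counts.

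Doublets were kept. Scrublet in scanpy 1.11.5 marked 0.025% of wild-type and 2.67% of labelled knockout barcodes. The first is too few to have worked, so the top 5% of scores were left out there in the alternative, with 4 Foxp3 T cells of each library removed. Other alternatives were TMM scaling (edgeR 4.0.16), means of cells' CPM, stricter limits on cells, Foxp3 and UMIs, and, chosen after seeing the data, leaving out deep barcodes, barcodes rich in other lineages, and genes near the background bound. Software was Python 3.11.15 with numpy 2.4.6, scipy 1.17.1, pandas 2.3.3 and matplotlib 3.10.9, tested on simulated data.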

Additional observations from a re-analysis of the deposited data

How the results depend on the processing

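No paired analysis was possible because each group has 1 library. The ratio of shares of Foxp3 T cells stayed above 1 under all alternatives run, 1.171 to 1.85 among T cells and 1.12 to 2.50 among passing barcodes, with 2.50 when barcodes with over 2% of UMIs from other lineages were left out. Of the results on named genes, 261 between libraries and 345 against CD4 T cells kept their value within counting error, 38 and 50 moved, and 8 and 5 turned. Counts of genes past 2-fold followed the cells and UMIs kept. Between libraries, higher and lower, they were 392 and 179 as reported, 65 and 87 without cells holding 2 UMIs of other lineages, 25 and 29 thinned, 197 and 97 without cells over 10000 UMIs, 1372 and 4192 with no minimum of UMIs, and 65 and 39 with at least 100 UMIs. Against wild-type CD4 T cells, 201 higher became 51 thinned, 4151 with no minimum and 45 with 100 UMIs. There, 360 lower became 158 without cells holding 2 UMIs of other lineages, 48 thinned, 205 without deep cells, 193 without cells over 2% other lineages, 1467 with no minimum and 66 with 100 UMIs. In labelled knockout, 278 higher became 84 without cells holding 2 UMIs of other lineages, 49 thinned, 2218 with no minimum, 52 with 100 UMIs and 464 as means of cells' CPM. There, 354 lower became 60, 56, 2806 and 90 in the first 4 of these, 206 without deep cells, 172 without cells over 2% other lineages and 204 with genes near the bound left out. Turned log2 ratios between libraries were Pgrmc2 (-0.080 without cells holding 2 UMIs of other lineages, -0.46 thinned), Ccl4 (0.22 with 2 Foxp3 UMIs) and, thinned, Sssca1 (-0.46), Cystm1 (-0.46), Bop1 (-1.04), Tmem97 (-1.04) and Tdrkh (-0.041). Against CD4 T cells, Cd63 in labelled knockout turned to 0.15 without cells holding 2 UMIs of other lineages and 0.018 thinned, Lmo4 in wild type to 0.39, and Myo1e and Mmd in labelled knockout to -0.25, all thinned. Fewer cells and UMIs enter each of these alternatives, and other causes were not tested. Depth limits the ratios that 1 wild-type UMI sets. A count of 0 taken as 3 can by itself turn a ratio of few UMIs. The thinned turns are therefore not read as changes of direction.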
